A study of Homo sapiens with 8 samples.

Results

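The USP family, the largest group of human deubiquitinases, was described in C4-2 cells treated with DTHIB or with its solvent. Members were the protein-coding genes whose symbol is USP followed by a number and at most 1 further letter, with a mean normalized count of 10 or more over the 8 libraries. Of 52 genes with such a symbol 46 passed this limit, out of 58884 genes in the table and 17194 that could be tested. C4-2 is a human prostate cancer line that was obtained from LNCaP, grows without androgen and serves as a model of castration-resistant disease. The DTHIB group held 4 libraries of cells kept for 48 h with 1 µM of the compound, also called E12, which the labels describe as a direct inhibitor of the heat shock factor HSF1. The DMSO group held 4 libraries of cells given the solvent for 48 h. All libraries came from this single line. Nothing in the labels tells whether replicates came from separate cultures; p-values therefore cover the spread between these samples alone, and that spread may be technical.

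Ubiquitin is attached to proteins by a cascade of E1, E2 and E3 enzymes and removed by deubiquitinases. The USPs are cysteine proteases that cut the bond between the end of ubiquitin and a lysine of the target, or between ubiquitins in a chain, and so can spare a protein from the proteasome or switch off a signal carried by ubiquitin. Members differ in their partners and targets. Some act on DNA repair proteins or histones, others at the proteasome, on mitochondria or on endosomes, and USP18 removes ISG15, a ubiquitin-like modifier made in response to interferon. Several have close paralogs that arose by gene duplication.

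Short stretches of promoter are shown because the compound is described as acting on HSF1, which binds heat shock elements, arrays of the unit nGAAn in alternating orientation. The 250 bases before each RefSeq transcription start (GRCh38.p14) were searched on both strands for 2 adjoining units, written GAANNTTC or TTCNNGAA, and for the cell cycle homology region TTTGAA, an element of genes that are active in dividing cells. Of the 46 members 37 had a promoter sequence. The 2-unit heat shock motif was found in 2 of these 37 genes (5.41%), against 14.0% of the 27305 genes with a promoter sequence. An array of 3 units (GAA NN TTC NN GAA or TTC NN GAA NN TTC), which contains the 2-unit motif, was in none of the 37 and in 0.557% of all genes. The E2F motif, as TTTCGCGC, TTTGGCGC or TTTCCCGC, was in none of the 37 and in 2.85% of all genes. TTTGAA was before a start of USP1 and of USP30 (5.41% of the 37), against 16.1% of all genes. The matches lie in the stretches below, with the matched letters in capitals, and a match is a description and not a binding site.
USP39, chr2:85615995-85616024, plus strand, GRCh38.p14, heat shock motif: gtaggcccacaGAAGGTTCtaaggggagag
USP16, chr21:29024629-29024658, plus strand, GRCh38.p14, heat shock motif: ataatgccgcgTTCCGGAAgttattgcttt
USP1, chr1:62436822-62436851, plus strand, GRCh38.p14, TTTGAA: gtgcctgcgttgTTTGAAactgtggaaccc
USP1, chr1:62436965-62436994, plus strand, GRCh38.p14, TTTGAA on the reverse strand: ggaaccggcaatTTCAAAggacgccacgtt
USP30, chr12:109022880-109022909, plus strand, GRCh38.p14, TTTGAA: tcacaatgatagTTTGAActtattcatggc
USP30, chr12:109052326-109052355, plus strand, GRCh38.p14, TTTGAA on the reverse strand, before another start of the gene: aaaaTTCAAAtcatgacccagggtccatcc

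The libraries held 27229291 to 29159387 reads in the DTHIB group and 29499458 to 30926053 in the DMSO group. Luminal prostate markers were abundant: KLK3 averaged 93753 ± 1168 normalized counts in DTHIB and 66682 ± 643 in DMSO, and TMPRSS2 averaged 19891 ± 699 normalized counts in DTHIB and 15927 ± 288 in DMSO (SD, n = 4 each). Basal, stromal and blood markers were near 0, with group sums of 26.1, 6.25 and 13 at most in DTHIB libraries and 31.8, 3.01 and 12 in DMSO libraries. Of the endothelial markers, VWF averaged 165 ± 20.5 normalized counts in DTHIB and 148 ± 16.7 in DMSO (SD, n = 4 each), while PECAM1 and CDH5 were under 4 in each group.

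In DTHIB-treated cells, transcripts of the family shifted by small amounts, and more members fell than rose. Of the 46 genes, 23 fell and 14 rose by limma with Benjamini-Hochberg adjustment over all genes tested, and 9 did not pass the test. Among all tested genes 64.6% passed, 31% higher and 33.7% lower, against 80.4% of the members, 30.4% higher and 50% lower. The median log2 fold change was -0.09 over the members and -0.01 over all tested genes. Among genes with a mean of at least 50, which leaves out USP50, it was -0.03 over 45 members and -0.03 over all tested genes. Under quantile normalization it was -0.01 over the members and 0.02 over all tested genes, so the gap between the medians depended on the setting. The median size of the change, whatever its sign, was 0.20 on the log2 scale for the members and 0.27 for all tested genes. At least 1.5-fold changes that passed the test were found in 4 members (8.7%), against 20.3% of all tested genes, and 2-fold changes in 1 member (2.17%), against 7.96%. The 2-fold member, also among the 4, was USP50, whose mean reached the limit of 10 only through the DMSO libraries, so that it had to differ; without it 22 members fell. The values of the groups did not overlap in 31 members (67.4%), DTHIB lower in 22 and higher in 9, against 57.9% of all tested genes (30.8% DTHIB lower, 27.1% DTHIB higher). USP50 is counted in both the 31 and the 22 of this comparison. Summed over the 46 genes, the DTHIB libraries held 110470, 110463, 109965 and 108541 normalized counts, against 116728, 116344, 116959 and 117111 in DMSO. Every DTHIB sum was below every DMSO sum. The coefficient of variation of a member within a group ran over 0.826% to 44.3% with a median of 3.34%. In bulk RNA, fewer cells that express a gene and less of its RNA per cell cannot be told apart.

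**Figure D1:**
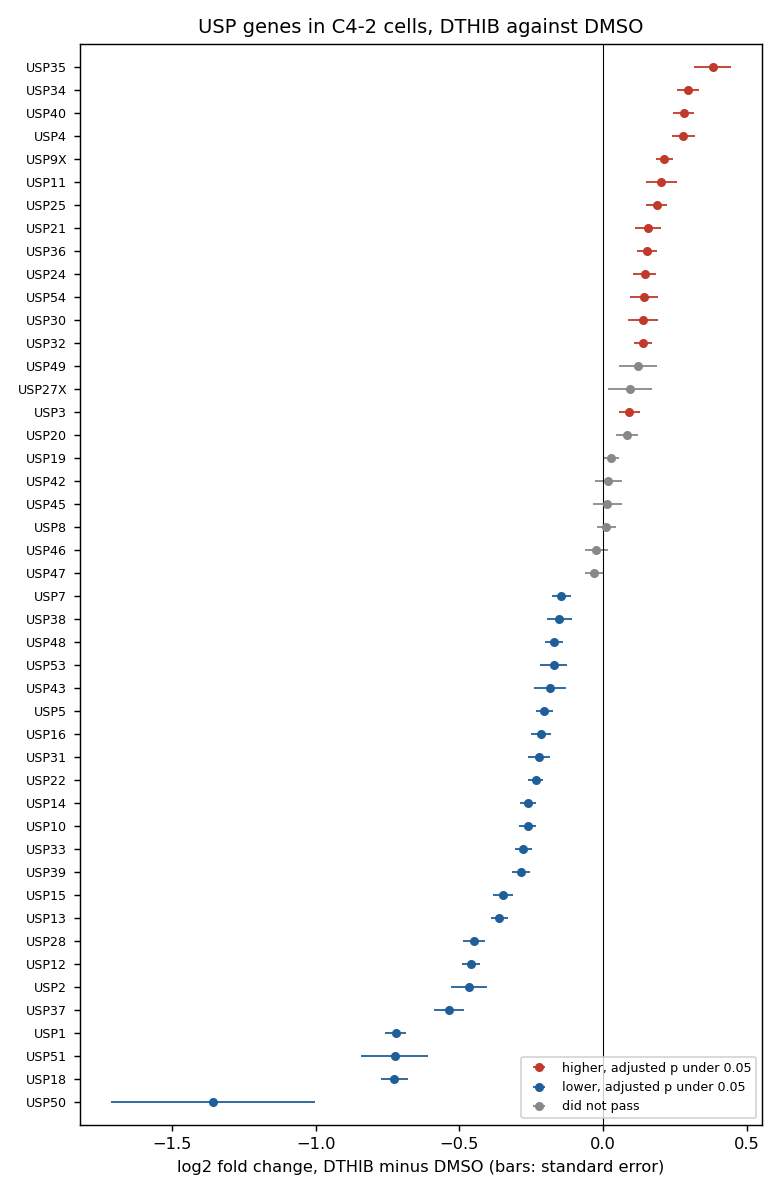
Log2 fold change (DTHIB minus DMSO, x axis) of each of the 46 USP genes (y axis, ordered by the change), from limma on log2(normalized count + 1); bars are standard errors from 4 libraries per group, and colour marks genes that were higher, lower or did not pass at an adjusted p of 0.05. The 23 blue genes run from USP50 at -1.36 to USP7 at -0.15, and the 14 red genes from USP3 at 0.09 to USP35 at 0.38.

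Of the 6 tested members listed here under genome maintenance (DNA repair and the cell cycle), 5 fell (USP1, USP37, USP28, USP13, USP7) and USP11 rose. Among all tested genes 33.7% fell and 31% rose. The list leaves out USP47 and USP45, which also act on repair proteins and did not pass (log2 fold changes of -0.03 and 0.02). USP1, which with its activator WDR48 removes monoubiquitin from the repair protein FANCD2 and from the replication clamp PCNA, had 2707, 2538, 2804 and 2508 normalized counts in DTHIB, against 4312, 4323, 4474 and 4287 in DMSO. The lowest DMSO library was well above the highest DTHIB library. The log2 fold change of USP1 (chromosome 1, 62436297 to 62451804, plus strand) was -0.72 (SE 0.0362, limma adjusted p = 1.93e-11), with means of 2639 ± 140.5 in DTHIB and 4349 ± 84.6 in DMSO (SD, n = 4 each, as in all such values).

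USP37, which stabilises cyclin A as cells enter S phase, had 545, 542, 601 and 523 normalized counts in DTHIB, against 810.2, 812, 753 and 829.7 in DMSO. The groups did not overlap, and the log2 fold change (chromosome 2, 218450251 to 218568361, minus strand) was -0.54 (SE 0.0525, limma adjusted p = 1.16e-07). Of the exon bases of USP37, 32.8% overlap VIL1 on the opposite strand, which averaged 25.2 normalized counts. USP28, which stabilises MYC and the checkpoint mediator claspin, averaged 1495 ± 51.0 in DTHIB and 2039.8 ± 84.8 in DMSO, a log2 fold change of -0.45. USP7, a deubiquitinase of MDM2, had 5738, 5593, 6226 and 5671 normalized counts in DTHIB, against 6559, 6440.3, 6326 and 6342 in DMSO. The groups lay close without overlapping. The log2 fold change of USP7 was -0.15 (limma adjusted p = 0.00107), and this call was lost under quantile normalization (limma adjusted p = 0.0554). USP11, reported to act on the BRCA2 pathway, rose by 0.20 on the log2 scale, with 793, 782, 777 and 895 normalized counts in DTHIB, against 654, 719.6, 711 and 732 in DMSO (chromosome X, 47232690 to 47248328, plus strand; SE 0.0538, limma adjusted p = 0.00331). Its lowest DTHIB library lay above its highest DMSO library.

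Proliferation genes were lower in the same libraries. All 8 listed (MKI67, TOP2A, CCNB1, CDK1, MCM2, MCM5, RRM2, BUB1) fell, with summed levels of 17429 to 20730 normalized counts in DTHIB, against 53060 to 59441 in DMSO, and none was at 0. The median log2 fold change of these 8 genes was -1.40, against -0.40 for the 6 USPs listed under genome maintenance, without USP47 and USP45. Their part in the change of the USP genes was not tested.

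Transcripts of proteins that single USPs act on were also compared. FANCD2 (log2 fold change -1.35), FANCI (-1.38) and PCNA (-1.29), all targets of USP1, fell, as did claspin (CLSPN, -1.73) and cyclin A2 (CCNA2, -1.92). MYC (0.27), a target of USP28, and EGFR (0.16), a cargo of USP8 on endosomes, rose. MDM2 had a log2 fold change of -0.05 and BECN1 of 0.07, and neither passed the test. These are mRNA levels, and no protein or ubiquitin was measured.

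Among USPs that act on histones, 3 of 7 fell and 2 rose, close to the 33.7% and 31% of all tested genes. USP22 is the deubiquitinase of the SAGA coactivator complex, where it needs ATXN7L3 and ENY2, and USP27X and USP51 can bind the same adaptors. USP22 averaged 7836 ± 137 normalized counts in DTHIB and 9219 ± 203 in DMSO, a log2 fold change of -0.23. USP51 had 69.8, 68.8, 61.9 and 57.8 normalized counts in DTHIB, against 104, 112, 98.4 and 114 in DMSO, without overlap. The log2 fold change of USP51 (chromosome X, 55484616 to 55489202, minus strand) was -0.72 (SE 0.116, limma adjusted p = 3.68e-05). USP27X averaged 230.4 ± 15.2 in DTHIB and 215 ± 11.6 in DMSO, with a log2 fold change of 0.10 that did not pass (limma adjusted p = 0.285). USP16, which acts on histone H2A and carries the heat shock motif shown above, fell by 0.22 on the log2 scale (2779.6 ± 109 in DTHIB, 3226 ± 76.4 in DMSO). USP21, another H2A enzyme, rose to 1195 ± 51.5 in DTHIB, against 1072 ± 60.4 in DMSO (log2 fold change 0.16), with overlap between the groups, while USP49, a deubiquitinase of histone H2B, had 0.12 and did not pass. USP3, also an H2A enzyme, averaged 1560.5 ± 48.9 in DTHIB and 1465 ± 42.5 in DMSO. Its log2 fold change of 0.09 passed with all libraries but lost its call in 6 of the 8 fits that left out a library, and USP3-AS1 overlaps 22.7% of its exon bases on the opposite strand.

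USP18 showed a fall as large as that of USP1. It had 484, 480.5, 494 and 487 normalized counts in DTHIB, against 815, 819, 825 and 764 in DMSO, and the spread within either group was small beside the gap. The log2 fold change (chromosome 22, 18149899 to 18177397, plus strand) was -0.73 (SE 0.0459, limma adjusted p = 4.24e-10). The modifier ISG15 itself fell to 793 ± 17.6 normalized counts in DTHIB, against 943 ± 58.7 in DMSO, a log2 fold change of -0.25. USP41, the near copy of USP18 on the same chromosome, had at most 14.6 normalized counts in a library and was not tested, so the values of USP18 are uncertain as far as reads fit either gene (handling of such reads: not given in the sources used here).

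The 3 members of ubiquitin recycling all fell, as did 33.7% of all tested genes. USP14, which sits on the proteasome and trims chains from its substrates, averaged 5787 ± 169 normalized counts in DTHIB and 6926 ± 68.4 in DMSO. USP5, which takes apart unanchored chains, had 4285 ± 113 in DTHIB and 4936 ± 77.7 in DMSO, and its paralog USP13, also counted above with the genome maintenance members, had 2000.5 ± 36.7 in DTHIB and 2568 ± 21.5 in DMSO. The log2 fold changes were -0.26, -0.20 and -0.36. UCHL5 and PSMD14, the other deubiquitinases of the proteasome, which have no USP fold, fell as well, by 0.53 and 0.35 on the log2 scale.

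**Figure D2:**
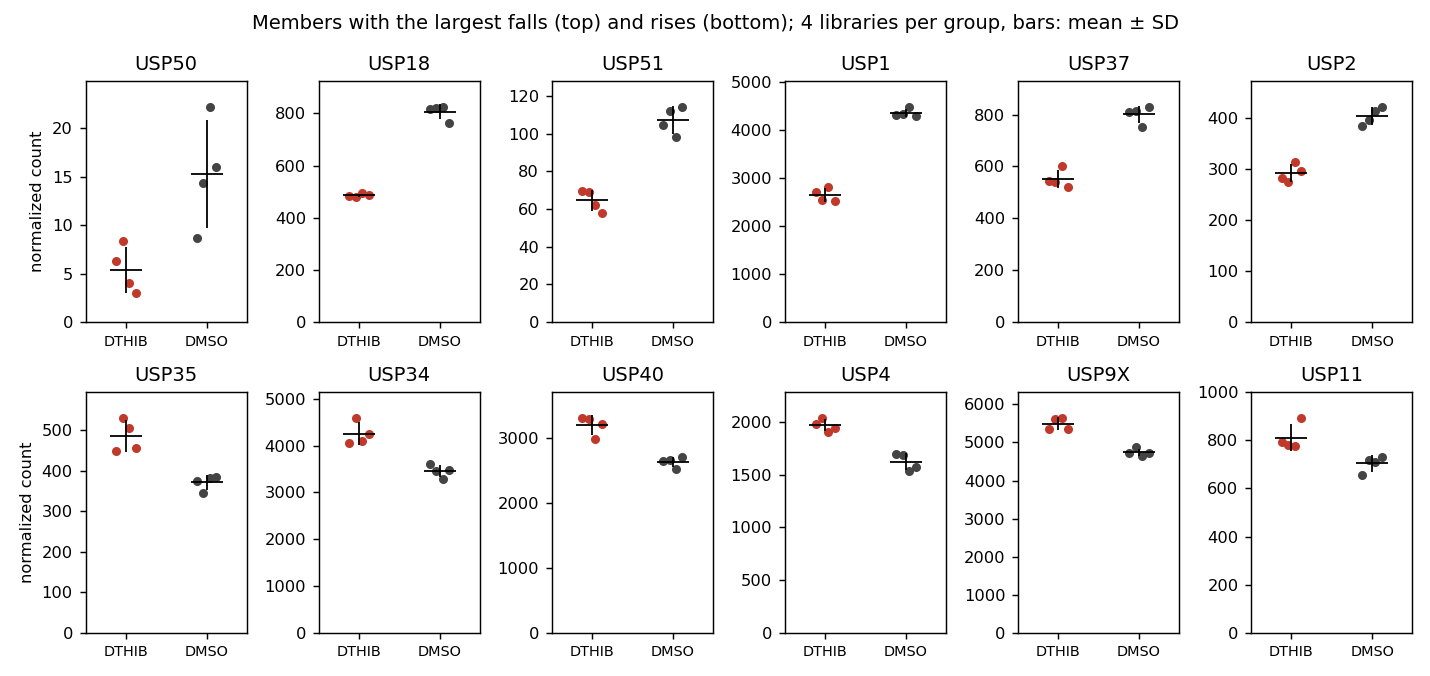
Normalized counts (y axis, from 0) in each of the 4 DTHIB and 4 DMSO libraries for the 6 members with the largest falls (top row) and the 6 with the largest rises (bottom row) among those that passed the test; points are libraries and bars mean ± SD. In all 12 genes the DTHIB points lie wholly on one side of the DMSO points, as with USP18 at 480.5 to 494 in DTHIB, against 764 to 825 in DMSO. The genes were picked by these same values, so their separation is no further support, and 57.9% of all tested genes did not overlap. USP50 reached the limit of 10 only through DMSO, and its closest libraries were 8.34 in DTHIB and 8.62 in DMSO.

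The members bound to WDR48 or WDR20 differed among themselves. USP1 fell, USP12 fell to 1690.4 ± 40.0 in DTHIB, against 2323 ± 35.3 in DMSO (log2 fold change -0.46), and USP46 averaged 2093 ± 117 in DTHIB and 2125 ± 59.6 in DMSO, a log2 fold change of -0.02 that did not pass. WDR20 fell (-0.23) and WDR48 had 0.09, with a limma adjusted p of 0.0612. Of 11 partner proteins in all, 7 fell, against 33.7% of all tested genes, and WDR48, ATXN7L3, ATXN7 (0.57, limma adjusted p = 0.102) and STAM2 (-0.06) did not pass. The largest of these falls was in MCMBP (-0.72), a partner of USP7 in the unloading of the replicative helicase, followed by G3BP2 (-0.35), the stress granule protein that binds USP10, and GMPS (-0.34), another USP7 partner. USP10 itself averaged 5434 ± 162 in DTHIB and 6514 ± 97.7 in DMSO (log2 fold change -0.26). ENY2, the SAGA subunit, fell by 0.28, while ATXN7L3 had 0.04 and did not pass.

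On mitochondria, USP35 had the largest rise of the family. It held 449, 531, 504 and 456 normalized counts in DTHIB, against 374, 345, 382 and 384 in DMSO, and the groups did not overlap. Its log2 fold change (chromosome 11, 78188812 to 78214711, plus strand) was 0.38 (SE 0.0649, limma adjusted p = 6.54e-05). USP30, which is anchored in the outer mitochondrial membrane and opposes mitophagy, averaged 598 ± 33.3 in DTHIB and 543 ± 21.8 in DMSO. Its groups overlapped, and its log2 fold change of 0.14 passed with all libraries and in 3 of 8 fits without 1 library. USP15, also reported to oppose mitophagy, fell to 1951 ± 77.0 in DTHIB, against 2481 ± 20.5 in DMSO (log2 fold change -0.35).

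Of the 5 members of endosome, reticulum and membrane traffic, 1 fell, 1 rose and 3 did not pass, where 33.7% of all tested genes fell and 31% rose. USP8, which acts on endocytosed receptors, averaged 2002 ± 55.4 in DTHIB and 1985 ± 25.2 in DMSO, and USP19, anchored in the endoplasmic reticulum, 3781 ± 65.1 in DTHIB and 3708 ± 51.9 in DMSO. Neither passed with the deposited scaling. Under quantile normalization both passed as higher, at 0.10 and 0.11, and with fold changes freed of their dependence on transcript length and GC, USP8 passed as lower (-0.16), so no direction is given for them. USP33, which with USP20 deubiquitinates the beta-2 adrenergic receptor, fell to 3104 ± 65.5 in DTHIB, against 3764 ± 72.4 in DMSO (log2 fold change -0.28, limma adjusted p = 3.11e-07). USP32, a Golgi and endosome enzyme, rose to 2512 ± 60.6 in DTHIB, against 2281 ± 34.3 in DMSO (0.14). In both genes the groups were apart. USP20, the paralog of USP33, had 1302, 1352, 1260.4 and 1335 in DTHIB, against 1188, 1229.7, 1257 and 1279.6 in DMSO, with a log2 fold change of 0.08 and a limma adjusted p of 0.0677, which passed in 5 of 18 alternatives.

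Among the remaining rises, USP34, which stabilises axin in Wnt signalling, had 4057, 4602, 4101 and 4259 normalized counts in DTHIB, against 3603, 3469, 3297 and 3483 in DMSO, a log2 fold change of 0.30 (chromosome 2, 61187463 to 61470769, minus strand; SE 0.0394, limma adjusted p = 4.59e-06). AHSA2P overlaps 18% of its exon bases on the opposite strand with a mean of 1530.3 normalized counts. The strand setting of the counting is not given, so reads of USP34 and AHSA2P in this overlap cannot be told apart. USP40 had 3323, 3299.8, 2990.1 and 3228 normalized counts in DTHIB, against 2657, 2668, 2528 and 2709 in DMSO (log2 fold change 0.28, chromosome 2, 233475520 to 233566782, minus strand, limma adjusted p = 3.92e-06). Its groups lay apart. USP9X, which spares MCL1 and other proteins from degradation, had 5358, 5619, 5654 and 5347 in DTHIB, against 4723, 4868, 4631 and 4723 in DMSO (0.21, chromosome X, 41085635 to 41236579, plus strand, limma adjusted p = 7.79e-06). USP4, which binds the spliceosome protein PRPF3, had 1981, 2043, 1909 and 1944 in DTHIB, against 1693, 1690.0, 1533 and 1573 in DMSO (0.28, chromosome 3, 49277831 to 49340712, minus strand, limma adjusted p = 8.96e-06). In both genes every DTHIB library was above every DMSO library. USP25, an enzyme of tankyrase, rose to 1661 ± 68.5 in DTHIB, against 1457 ± 22.8 in DMSO (0.19), and USP36, a nucleolar enzyme, to 1656 ± 56.0 in DTHIB, against 1488 ± 23.2 in DMSO (0.15). USP24 rose to 2918 ± 161 in DTHIB, against 2635 ± 93.7 in DMSO (0.15), but its groups overlapped.

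USP54 had 12422, 13006, 11009 and 12525 normalized counts in DTHIB, against 10640.4, 10466, 11163 and 12089.7 in DMSO. Its groups overlapped, and its log2 fold change of 0.14 lost its call without DTHIB replicate 2, DMSO replicate 1 or DMSO replicate 2 (limma adjusted p = 0.0542 to 0.0592). PPP3CB-AS1, with a mean of 153 normalized counts, overlaps 16.1% of its exon bases on the opposite strand.

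Among the remaining falls, USP2, a clock-regulated enzyme that spares cyclin D1, had 282, 274, 314 and 296 normalized counts in DTHIB, against 383, 394, 413 and 421 in DMSO. Its groups did not overlap, and its log2 fold change (chromosome 11, 119355215 to 119381726, minus strand) was -0.47 (SE 0.0637, limma adjusted p = 6.24e-06). USP39, a spliceosome protein that lacks the catalytic residues and carries the other heat shock motif shown above, fell to 2772 ± 91.2 in DTHIB, against 3377 ± 70.6 in DMSO (log2 fold change -0.28). USP31 fell to 1005 ± 26.6 in DTHIB, against 1173 ± 16.6 in DMSO (log2 fold change -0.22), and USP48 to 2128 ± 38.2 in DTHIB, against 2395 ± 34.8 in DMSO (-0.17). USP43 averaged 583 ± 33.4 in DTHIB and 663 ± 39.1 in DMSO (-0.18), and it was the single member of the 23 that fell whose groups overlapped. USP53 averaged 902 ± 50.3 in DTHIB and 1015 ± 36.3 in DMSO (-0.17), and USP38 averaged 1184 ± 64.8 in DTHIB and 1314 ± 36.0 in DMSO (-0.15). Both lost their call under quantile normalization (limma adjusted p = 0.0695 for USP53 and 0.111 for USP38). USP47, an enzyme of DNA polymerase beta, USP45, which acts on the repair protein ERCC1, and USP42 had log2 fold changes of -0.03, 0.02 and 0.02 and did not pass. USP47 had 3169.5 to 3363 in DTHIB and 3243 to 3339 in DMSO, with overlap. USP45 averaged 792 ± 14.2 in DTHIB and 785 ± 52.9 in DMSO, and USP42 averaged 726 ± 27.6 in DTHIB and 716 ± 24.4 in DMSO.

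USP50 rested on very few reads. It had 6.25, 8.34, 3.99 and 2.99 normalized counts in DTHIB, against 8.62, 14.4, 22.2 and 16 in DMSO. The highest DTHIB and the lowest DMSO library were nearly level. Its mean reached the limit of 10 only through the DMSO group, so its log2 fold change of -1.36 (SE 0.355) is a description and supports no statement on the family. Of the exon bases of USP50, 28.6% overlap USP8 on the opposite strand (the gene lies on chromosome 15, 50500562 to 50546708, minus strand), so reads of USP8 and USP50 there cannot be told apart without strand. Its mean over the 8 libraries was 10.3. The 6 genes that stayed under the limit were USP41, with a mean of 8.72 normalized counts, USP6 with 3.01, USP44 with 2.38, USP29 with 1 read in all libraries, and USP26 and USP9Y, which were at 0 in every library.

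Levels between genes were compared per length, as normalized counts per kb of annotated exon (GENCODE release 29), which understates genes with long rare exons. In DTHIB the order began with USP54 (1289 ± 90.5 per kb), USP22 (1151 ± 20.1), USP5 (1146 ± 30.1), USP10 (1069 ± 31.9) and USP14 (967 ± 28.2). In DMSO it began with USP22 (1354 ± 29.8), USP5 (1321 ± 20.8), USP10 (1282 ± 19.2), USP54 (1168 ± 76.8) and USP14 (1157 ± 11.4). USP22 and USP5 differed by less than their spread in the DTHIB group. USP1 stood at rank 9 in DTHIB and rank 6 in DMSO, and USP18 at rank 25 in DTHIB and rank 13 in DMSO. Median transcript length was 5420 bases for members that rose, 4511 for those that fell and 6255 for those that did not pass, and median GC content was 47.6%, 43.6% and 45.3%. With the dependence of the fold changes on length and GC removed, 24 members fell and 14 rose.

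**Figure D3:**
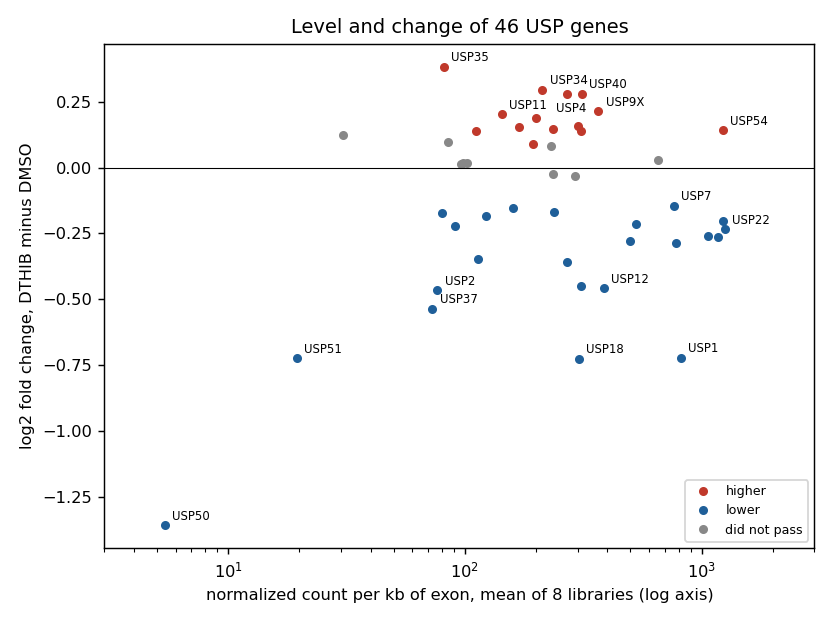
Mean level over the 8 libraries in normalized counts per kb of exon (x axis, log scale) against log2 fold change, DTHIB minus DMSO (y axis), for the 46 members, with colour for the call. USP1 (619 per kb in DTHIB, 1020.1 in DMSO) lies far right with a log2 fold change of -0.72, and the points farthest left are USP50 (2.83 in DTHIB, 8.02 in DMSO) and USP51 (14.7 in DTHIB, 24.3 in DMSO).

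Paralogs were compared through the log2 ratio of their counts within each library, which cancels the scaling of the library. In 16 pairs the difference between the changes of the genes was tested by a two-sided exact permutation of the 8 libraries, for which the smallest possible p is 0.0286. It reached that value, with an adjusted p of 0.0327 over the 16 pairs, in 14. In 6 of these the genes had passed in opposite directions. The same counts were not made for pairs of other genes. Singly, 31% of all tested genes rose, 33.7% fell and 57.9% had groups that did not overlap. The counts of 14 and 6 are therefore not read as particular to paralogs. USP4 rose while its paralog USP15 fell (difference 0.63 on the log2 scale, SE 0.0525), and the ratio of USP4 to USP15 counts was 1.01 in DTHIB and 0.653 in DMSO. USP11, the other relative of USP15, likewise rose (difference 0.55, SE 0.0806). USP25 rose while USP28 fell (0.64, SE 0.0378), with a count ratio of 1.11 in DTHIB and 0.715 in DMSO. USP35 rose and USP38 fell (0.53, SE 0.0771), USP21 rose and USP2 fell (USP2 minus USP21, -0.62, SE 0.0697), and USP54 rose and USP53 fell (USP53 minus USP54, -0.31, SE 0.0863).

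In other pairs only the size differed, or 1 gene did not pass. USP12 fell relative to USP46 (-0.43, SE 0.0393) and USP33 relative to USP20 (USP20 minus USP33, 0.36, SE 0.0445). Within the SAGA-adaptor enzymes, USP27X differed from USP51 by 0.82 (SE 0.138) and USP22 from USP27X by -0.33 (SE 0.0596), with 3.53 counts of USP27X per count of USP51 in DTHIB and 2.0 in DMSO. USP51 fell more than USP22 (USP22 minus USP51, 0.49, SE 0.0864), and USP13 more than USP5 (USP5 minus USP13, 0.16, SE 0.0342). USP16 fell relative to USP45 (-0.23, SE 0.0443), and USP36 rose relative to USP42 (0.13, SE 0.0367). USP4 and USP11 differed by 0.08 (SE 0.0852, exact permutation p = 0.343, adjusted p = 0.366), and USP31 and USP43 by -0.04 (SE 0.0602, exact permutation p = 0.6, adjusted p = 0.6), and no difference was detectable at this spread. The calls of USP5/USP13, USP16/USP45, USP36/USP42 and USP53/USP54 each had an adjusted p of 0.0653 in tests without 1 library. USP5/USP13 and USP53/USP54 lost theirs when any 1 of the 4 DMSO libraries was left out, USP16/USP45 when any 1 of the 4 DTHIB libraries was, and USP36/USP42 without DMSO replicate 3. The differences kept their sign, at 0.14 to 0.16 for USP5/USP13, -0.25 to -0.21 for USP16/USP45, 0.10 for USP36/USP42 and -0.35 to -0.27 for USP53/USP54, and an exact p over 7 libraries is coarse.

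**Figure D4:**
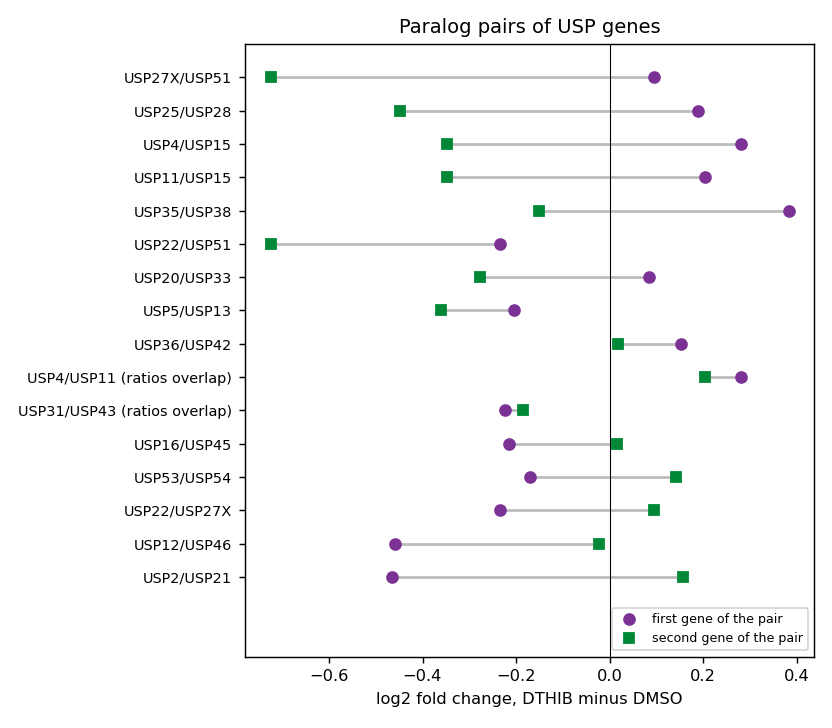
Log2 fold changes, DTHIB minus DMSO (x axis), of both genes in each of the 16 paralog pairs (y axis), with circles for the first gene named, squares for the second and a line joining them. Pairs marked as overlapping are those whose within-library ratios overlapped between the groups, and the longest line joins USP27X (0.10) and USP51 (-0.72).

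Deubiquitinases of the other families and the ubiquitin genes also changed in both directions. Of 31 tested enzymes of the UCH, OTU, Josephin, JAMM, MINDY and ZUFSP families 15 fell, 5 rose and 11 did not pass, where 33.7% of all tested genes fell, 31% rose and 64.6% passed in either direction. Their median log2 fold change was -0.04. UCHL5 (-0.53), PSMD14 (-0.35), STAMBP (-0.27) and OTUD6B (-0.25) had the smallest adjusted p among those that fell. MYSM1, a histone H2A deubiquitinase, rose by 0.41. CYLD, USPL1 and PAN2, which share the USP fold without the symbol, had log2 fold changes of 0.04, 0.02 and 0.05 and did not pass (limma adjusted p = 0.439, 0.792 and 0.37). The polyubiquitin gene UBB fell (-0.25), whereas RPS27A (0.30), in which ubiquitin is fused to a ribosomal protein, rose. The activating enzymes UBA1 (-0.10) and UBA6 (-0.21) fell.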

How the data were processed

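C4-2 RNA libraries, 4 with DTHIB and 4 with DMSO, were grouped by their titles. Poly(A) RNA was enriched, per the labels' protocols. The submitters' processing notes name GRCh38, DESeq2 2.11.40.2, featureCounts 1.6.3, HISAT2 2.1.0, Trimmomatic 0.36.5 and StringTie 1.3.4; order, settings, annotation and strand: not given in the sources used here. The signal that the authors deposited is a DESeq2-normalized count per gene and library, by the file's name, and dividing by a step per library gave whole reads for 100% of values (within 0.01). A second table that the authors deposited holds the DESeq2 mean signal, log2 fold change, standard error, Wald score, p-value and adjusted p-value.

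In R 4.3.3, limma 3.58.1 (trend, two-sided, no covariates) was fitted to log2(normalized count + 1) of 17194 genes with a mean of at least 10, with Benjamini-Hochberg adjustment. Fold changes on this scale understate the change of low genes. "Rose" and "fell" mean an adjusted p under 0.05. Symbols matched 41967 of 58884 identifiers, and GENCODE release 29 positions 58611. Replicates differed by more than sampling noise (chi-square per gene of 2.39 or more within groups). Alternatives were pseudocounts of 0.5 and 5, no filter, a mean of at least 50, TMM, quantile normalization, edgeR 4.0.16 and DESeq2 1.42.0 on recovered reads, the replicate block and each library left out. A correction of fold changes for transcript length and GC and the paralog ratios were added after seeing the data. The fits were tested on simulated data. Some genes of the lists are not reported here. The members and lists were chosen with earlier results of these data known. Named with all values are the 6 largest rises and 6 largest falls among members that passed; USP54, USP7 and USP20 were added after their values were seen. The 0.829 limit of Dixon's test was used for groups of 4.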

Additional observations from a re-analysis of the deposited data

Results flagged for a closer look

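Within-group spread was checked in 92 groups of 4 libraries, 2 per member, and in 7 of them (7.61%) 1 library stood apart from the other 3 by Dixon's criterion, where chance gives about 1 in 20. Among the DTHIB libraries, USP14 had 5537 normalized counts in replicate 4, below 5845 to 5898 in the others, and USP5 had 4118 in replicate 2, below 4329 to 4363. In DTHIB replicate 1, USP47 had 3363, above 3169.5 to 3194, and USP46 had 2267, above 2015 to 2054. USP11 had 895 in DTHIB replicate 4, above 777 to 793. Among the DMSO libraries, USP18 had 764 in replicate 4, below 815 to 825, and USP19 had 3631 in replicate 2, below 3728 to 3739. USP14, USP5, USP11 and USP18 kept their call in all 8 fits without 1 library.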

How the results depend on the processing

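The counts of members that rose (14) and fell (23) stayed within 1.5 times under all 18 alternatives, with 11 to 17 rising and 20 to 24 falling. Without 1 library 11 to 14 rose and 23 fell. Quantile normalization gave 17 and 20. With the replicate block 14 members rose and 23 fell, the same numbers as without it. Same-numbered libraries did not deviate together (correlations of -0.07 to 0.01), so the numbers do not pair them. No scaling moved the median of all genes by more than 0.1. Of the 37 calls, 11 rises and 20 falls held under every alternative that could test them, USP50 not being tested at a mean of at least 50. USP3 was also lost with no filter (adjusted p = 0.0814). Directions reversed in members that had not passed: under quantile normalization USP47 was 0.048 and USP46 0.059, corrected for length and GC USP46 was 0.0010, USP8 -0.16 (adjusted p = 0.00429) and USP19 -0.012. Without 1 library USP8 ranged over -0.0046 to 0.027, USP45 over -0.019 to 0.058 and USP42 over -0.0053 to 0.043. The cause was not tested. At an adjusted p under 0.05, 11 members were higher and 23 lower in the authors' deposited table, without USP3, USP30 and USP54. On recovered reads edgeR called 15 members higher and 23 lower, and DESeq2 14 and 23. Of paralog differences, USP36/USP42 and USP53/USP54 were also lost with the length and GC correction (adjusted p = 0.0653). USP50 and USP51, with means under 100, are limited by depth.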
